A study of Callithrix jacchus with 54 samples.

Results

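Common marmoset embryonic stem cells (cjESCs) were followed over 96 h as they were turned into primordial germ cell-like cells (cjPGCLCs) by enforced SOX17 in BLSE, a mixture of the cytokines BMP4, LIF, SCF and EGF. The course holds the libraries labelled with this treatment at 12, 24, 48 and 96 h and those of the cjESCs kept in DK20FA medium, chosen by their labels: 10 of the 54 libraries of the study, in 5 groups of 2 replicates. The study measured poly(A) RNA in cjESCs and in cells made from them with different cytokines and transgenes. All groups used here come from the line CMES40 with the reporters BLIMP1-tdTomato and NANOS3-eGFP and a genotype given as rtTA, tetO-BLIMP1, SOX17-GR and DD-TFAP2C, where the number in the last name differs from library to library. SOX17-GR is SOX17 joined to a part of the glucocorticoid receptor, so that dexamethasone lets it act, and dexamethasone was given only together with SOX17. The line was grown from picked colonies, so these values describe 1 line. The cjESCs grew on mouse feeder cells and were sorted as TRA-1-60(+), the 12, 24 and 48 h libraries hold all cells of the culture, and the 96 h libraries hold cells sorted as BLIMP1-tdTomato(+). All treated groups also had a Rock inhibitor. DK20FA holds bFGF and activin A, which the methods do not list for the medium of the treated groups. The treated cells were also moved into low-binding wells. Each comparison with cjESCs thus spans these changes as well, and that of 96 h with 48 h spans the sort.

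Primordial germ cells are the founders of eggs and sperm. In primates their fate is set by SOX17, PRDM1 (also called BLIMP1) and TFAP2C after a BMP signal, and they keep POU5F1 and NANOG while they lose SOX2. The amnion forms beside them under the same signal and shares with them factors such as GATA2, GATA3 and TFAP2A.

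Levels are given in TPM, a share of all transcripts that is corrected for transcript length, so that levels can be compared between genes; the read depth behind them is unknown. Each library had between 11918 and 12270 of 14812 genes above 0, and the replicates of a group correlated at r 0.986 to 0.991 across genes, which are not independent replicates. FN1, a gene of most adherent cells, is listed at 0 in every library and TFRC at 0.83 TPM or less, so a listed 0 is not read as the absence of a transcript. A gene rose or fell where its log2(TPM + 1) changed with an adjusted p under 0.01 in limma, over 11197 genes; it is called where the change was also over 4-fold and the mean log2 value of both groups above 1.5. The methods of the study call the replicates biological duplicates; the labels give no detail of their cultures. In these bulk samples more cells of a type and more RNA per cell cannot be told apart, and the values of SOX17, PRDM1 and TFAP2C may hold reads of their human transgenes, which cannot be told apart here.

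The difference from cjESCs grew at each time. At 12 h 660 genes rose (5.89% of those tested) and 439 fell (3.92%), and 74 were called higher (0.661%) and 40 lower (0.357%). At 24 h 1134 genes rose (10.1% of those tested) and 750 fell (6.7%), with 132 called higher (1.18%) and 69 lower (0.616%). At 48 h 1765 genes rose (15.8% of those tested) and 1183 fell (10.6%), with 226 called higher (2.02%) and 164 lower (1.46%). At 96 h 2869 genes rose (25.6% of those tested) and 1970 fell (17.6%), with 374 called higher (3.34%) and 380 lower (3.39%). This last split was 313 and 437 with median-ratio scaling and 326 and 434 with quantile normalization. With a pseudocount of 0.1 in place of the 1 added before the log it was 485 and 443, which turned the lead. The lead also turned without cjESC replicate 2 or without 96 h replicate 1. These 4 comparisons share the 2 cjESC libraries, so their values stand side by side and are not independent. The median log2 change over all genes was 0.0081, 0.044, 0.075 and 0.14 at the 4 times. At 96 h median-ratio scaling moved that median by −0.14 and quantile normalization by −0.11. The distance between log2 profiles was 35 to 45.4 between replicates, 66.2 to 71 from cjESCs to 12 h, 43.3 to 50.3 from 12 to 24 h, 53.2 to 55.3 from 24 to 48 h and 81.1 to 88.5 from 48 to 96 h. The first and the last step were the longest, and that from 12 to 24 h was close to the distance between replicates. The first step also goes from sorted cells on feeders to all cells in another medium, and the last from all cells to sorted ones. In both, time cannot be told apart from these changes.

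**Figure D1:**
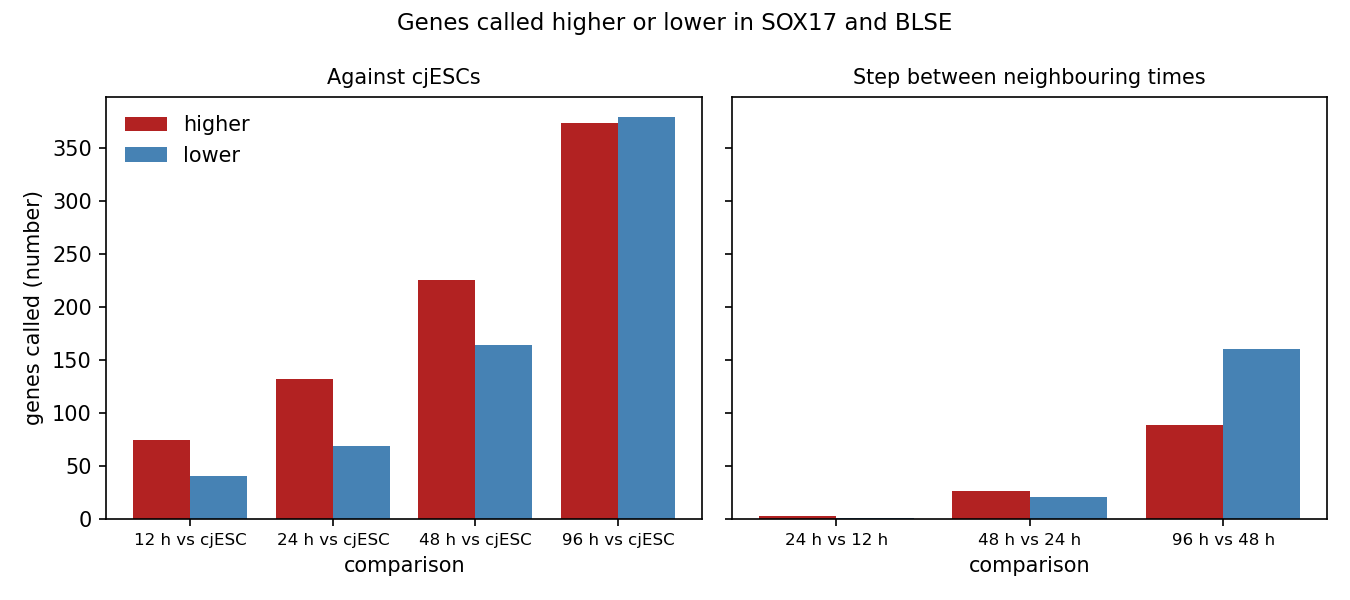
Genes called higher (up) or lower (down) than in cjESCs at each time (left) and at each step between neighbouring times (right), as numbers of genes. The 96 h libraries, among the treated the only ones sorted by a reporter, have 374 genes higher and 380 lower, against 74 and 40 at 12 h.

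The 3 germ cell markers of the course were all higher in the treated cells. SOX17 (gene 100396115) stood at 27.6 and 36.2 TPM in the cjESC libraries, 164 and 168 at 12 h, 180.2 and 189 at 24 h, 368 and 322 at 48 h and 692 and 636 at 96 h. PRDM1 (100401970) was at 17.6 and 10.5 TPM in the cjESC libraries, 67.4 and 62.1 at 12 h, 72.8 and 62.7 at 24 h, 73.4 and 72.3 at 48 h and 183 and 155 at 96 h. NANOS3 (100405226), an RNA-binding protein that keeps germ cells alive, was at 0.42 and 0.74 TPM in the cjESC libraries, 43.9 and 34.4 at 12 h, 75.6 and 68.7 at 24 h, 106 and 94.6 at 48 h and 276 and 234 at 96 h. In all 3 genes every treated library lies above both cjESC libraries and both 96 h libraries above every other. SOX17 was up by 2.36 on the log2 scale at 12 h (SE 0.29, adjusted p 1.46e-07) and 4.35 at 96 h, PRDM1 by 2.16 and 3.53, and NANOS3 by 4.67 and 7.34 (SE 0.29, adjusted p 4.16e-21). Between 12 and 48 h no step passed in any of the 3 genes.

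Other genes of the germ cell programme joined at different times. TFAP2C (100400638), the partner of PRDM1, was at 174 and 182 TPM in the cjESC libraries, 464 and 489.6 at 12 h, 481 and 482 at 24 h, 525 and 539.8 at 48 h and 981 and 938 at 96 h, with every treated library above cjESCs and 96 h highest. DND1 (100396355), an RNA-binding partner of NANOS proteins, was at 59 and 61.1 TPM in the cjESC libraries, 152 and 153 at 12 h, 161 and 167 at 24 h, 231 and 234 at 48 h and 403 and 386 at 96 h, again with no overlap between cjESCs and any later time. TCL1A (108593658), a co-activator of AKT kinases found in germ cells, was low until late: 0 and 0.35 TPM in the cjESC libraries, 0.9 and 0 at 12 h, 0.67 and 1.07 at 24 h, 2.5 and 4.17 at 48 h and 57.9 and 55.1 at 96 h. Only the 96 h libraries were high, and its rise from 48 to 96 h was 3.76 (adjusted p 4.96e-09). SOX15, a SOX factor of early germ cells, was at 32.3 and 19.6 TPM in cjESCs, 44 and 69.6 at 12 h, 26 and 38.7 at 24 h, 23 and 24.1 at 48 h and 112 and 97.8 at 96 h. It was high at 12 and 96 h, while its 24 and 48 h values overlap those of cjESCs. Of the 10 germ cell specifiers listed, 7 rose at 12 h, 6 at 24 h, where KLF4 fell (not so without either one of the cjESC libraries or without 24 h replicate 1), 7 at 48 h and 9 at 96 h; PRMT5 was the member that passed at no time. Their median log2 change was 1.35, 1.43, 1.90 and 3.11, beside the medians of all genes given above. The list holds SOX17, which the treatment enforced, and PRDM1, the gate of the 96 h sort, so its counts and medians are not independent of either.

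Both reporters were put into PRDM1 and NANOS3 by genome editing, and the first of them is the gate of the 96 h sort. The guides shown lie close to the stop codon of each gene, where the reporters were inserted. Lower case marks the cloning overhang and capitals the guide, written 5′ to 3′.
BLIMP1: caccGCAGATCTGATGACTCGTAA
NANOS3: caccGCCAGCTTGAGCTCGATCCCT
The level of PRDM1 at 96 h is therefore not independent of the sort. The paper describes the 96 h cells as positive for both reporters. The level of NANOS3 may then be tied to the sort as well.

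Surface and late genes of germ cells moved both ways, as did genes in general. Of 9 surface markers tested, 2 rose and 3 fell at 96 h, with a median of 0.01 that turns negative under both scalings. Over all genes tested 25.6% rose and 17.6% fell at 96 h. PDPN (100387851), the podoplanin used to sort germ cells, was at 620.0 and 444 TPM in the cjESC libraries, 798 and 902 at 12 h, 694 and 647 at 24 h, 648 and 685 at 48 h and 1242 and 1195 at 96 h, with the 96 h pair highest. KIT, the receptor of SCF, was at 0.17 and 0 TPM in cjESCs, 1.01 and 1.44 at 48 h and 3.37 and 3.62 at 96 h, a rise of 2.05 at a low level. EPCAM, an epithelial adhesion protein, fell by 1.33 and CDH1, E-cadherin, fell by 1.90. CDH2 (100411112), the N-cadherin of mesenchymal and germ cells, was at 6.12 and 4.48 TPM in the cjESC libraries, 13.4 and 14.3 at 12 h, 21.3 and 17.3 at 24 h, 51.5 and 64 at 48 h and 311 and 284 at 96 h. The CDH2 values do not overlap between any pair of neighbouring groups, and its rise at 96 h was 5.58 (SE 0.19, adjusted p 1.19e-22). Among 8 late germ cell genes tested, 3 rose at 96 h (1 without cjESC replicate 1) and 1 fell, the rises led by STK31 at 12.2 and 10 TPM against 1.05 and 1.41 in cjESCs. DDX4 stayed under 1 TPM in all 10 libraries, and DAZL was at 0 and 0.17 TPM at 96 h against 1.9 and 4.76 in cjESCs.

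Pluripotency genes parted into groups. POU5F1 (100384946) was at 3082 and 2868 TPM in the cjESC libraries, 3255 and 3766 at 12 h, 4459.6 and 5098 at 24 h, 4314 and 4678 at 48 h and 6321 and 5730.2 at 96 h, and all treated libraries lie above cjESCs. NANOG (100399586) was at 743 and 514 TPM in the cjESC libraries, 504 and 466 at 12 h, 382 and 395 at 24 h, 270.2 and 331 at 48 h and 925 and 891 at 96 h, a dip at 48 h followed by the highest pair of the course. PRDM14 (100411718), a repressor that guards pluripotency, dipped in the same way but did not come back to the level of cjESCs: 202 and 130.0 TPM in the cjESC libraries, 44.1 and 51 at 12 h, 25.2 and 27.5 at 24 h, 9.92 and 8.26 at 48 h and 51.5 and 42.7 at 96 h. UTF1, a chromatin protein of pluripotent cells, was at 247 and 177 TPM in cjESCs, 83.2 and 77.1 at 48 h and 308 and 209 at 96 h, and its 96 h pair overlaps that of cjESCs. From 48 to 96 h NANOG rose by 1.60, PRDM14 by 2.25 and UTF1 by 1.65. SOX2 (100407856) was at 191 and 200.4 TPM in the cjESC libraries, 15 and 10.8 at 12 h, 5.57 and 7.21 at 24 h, 2.66 and 3.36 at 48 h and 0.82 and 1.3 at 96 h, with each time below the one before. Of the 12 core genes 5 fell at 12 h, 9 at 48 h and 7 at 96 h. 1 rose at 24 h, 1 at 48 h and 3 at 96 h, the last count 1 without cjESC replicate 2, without either one of the 96 h libraries or with median-ratio scaling. Their median log2 change was −1.32 at 48 h and −1.36 at 96 h.

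Naive and primed markers split too. Among 10 naive genes 3 rose and 4 fell at 96 h (median −0.14), when 25.6% of all genes rose and 17.6% fell. TBX3, counted below with the amnion and trophoblast genes too, is among these 3 rises. TFCP2L1, a factor of the naive state, was at 11.1 and 3.71 TPM in cjESCs, 15.3 and 20.5 at 48 h and 23.7 and 23 at 96 h, a rise of 1.69 that no longer passes without cjESC replicate 2 (1.01). KLF17, another, was at 31.7 and 28.9 TPM in cjESCs, 3.96 and 5.83 at 48 h and 6.67 and 5.3 at 96 h, and fell by 2.17. Primed epiblast genes went down: 2 of 11 fell at 12 h, 4 at 24 h, 5 at 48 h and 7 at 96 h, with medians of −1.15 at 48 h and −1.82 at 96 h. ZIC2, a neural and epiblast factor, was at 117 and 112 TPM in cjESCs, 38.8 and 30.1 at 12 h, 12.2 and 10.3 at 48 h and 2.58 and 2.35 at 96 h. DNMT3B (100412936), which writes new DNA methylation, was at 59 and 61.7 TPM in the cjESC libraries, 9.36 and 8.11 at 12 h, 7.05 and 5.58 at 24 h, 5.43 and 7.36 at 48 h and 3.49 and 3.98 at 96 h, so that most of its loss was in the first 12 h. OTX2, another epiblast factor, was at 0.51 TPM or less in the course.

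Most BMP targets were up at each time. Of 12 tested, 10 rose at 12 h, 11 at 24 h, 11 at 48 h and 10 at 96 h, while 1 fell at 48 h (0 without cjESC replicate 2 or without 48 h replicate 2) and 2 at 96 h, with median log2 changes of 1.64, 2.24, 3.16 and 1.90. ID1 (100412122), which blocks basic helix-loop-helix factors, was at 279 and 208 TPM in the cjESC libraries, 818 and 777 at 12 h, 958 and 929 at 24 h, 1004 and 882 at 48 h and 1007 and 1006 at 96 h, and every treated library lies above cjESCs. MSX2 (100387689), a homeobox repressor, was at 21.6 and 24.5 TPM in the cjESC libraries, 233 and 197 at 12 h, 349.9 and 289.6 at 24 h, 313 and 318 at 48 h and 301 and 248 at 96 h. DLX5 went on climbing to 48 h and then dropped: 0.6 and 0.79 TPM in cjESCs, 8.87 and 8.66 at 12 h, 21.6 and 15.7 at 24 h, 72.7 and 55.2 at 48 h and 9.22 and 13.2 at 96 h. The treated pairs of MSX2 all lie far above cjESCs and those of DLX5 peak at 48 h. The feedback inhibitors SMAD6 and BAMBI were up at each time, by 2.47 and 3.13 at 48 h. The secreted BMP antagonist NOG was at 69 and 97.7 TPM in cjESCs, 38.9 and 22.5 at 48 h and 1.41 and 1.28 at 96 h. LIFR, the LIF receptor, was at 11 and 11 TPM in cjESCs, 35.2 and 24.6 at 12 h and 21.5 and 23.5 at 96 h. ERBB2, a partner of the EGF receptor, was at 108 and 121 TPM in cjESCs, 58 and 60 at 48 h and 6.49 and 13.8 at 96 h, with its larger fall in the last step (−2.51).

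More amnion and trophoblast genes were up at 48 h than at the other times. Of 13 tested, 4 rose at 12 h, 8 at 24 h, 10 at 48 h and 6 at 96 h. In the same list 1 fell at 24 h (0 without cjESC replicate 2 or without 24 h replicate 2), 1 at 48 h (0 without cjESC replicate 2) and 2 at 96 h (1 without cjESC replicate 2 or without either one of the 96 h libraries). The medians were 0.96, 1.44, 2.74 and 0.57. GATA2 (100411598) was at 7.84 and 6.69 TPM in the cjESC libraries, 69.1 and 67 at 12 h, 167 and 154 at 24 h, 347 and 354 at 48 h and 179 and 241 at 96 h, with pairs that do not overlap up to 48 h and a lower pair at 96 h. It passed against cjESCs at each time, while none of the steps from 12 h on passed. TFAP2A (100393261) was at 2.69 and 1.85 TPM in the cjESC libraries, 7.21 and 7.51 at 12 h, 17.7 and 15 at 24 h, 44.2 and 43.2 at 48 h and 37.9 and 44.3 at 96 h, with 48 and 96 h overlapping. HAND1 (100399939), a factor of extra-embryonic mesoderm and trophoblast, was at 259 and 426 TPM in the cjESC libraries, 680.1 and 611 at 12 h, 1023 and 794 at 24 h, 1048 and 991 at 48 h and 79.8 and 111 at 96 h, and its 96 h pair is the lowest of the course (−3.42 from 48 h). CDX2, of trophectoderm, was at 3.69 and 9.06 TPM in cjESCs, 66.9 and 47.7 at 48 h and 4.6 and 10.2 at 96 h, where the last pair overlaps that of cjESCs. ISL1, of amnion, was at 0 and 0.38 TPM in cjESCs, 19.2 and 17.6 at 48 h and 11.1 and 14.8 at 96 h, still up at 96 h. The amnion genes VTCN1 and GABRP were low, VTCN1 at 11.7 and 7.47 TPM at its peak at 48 h and GABRP at or under 1 TPM in all 10 libraries. The list summed to 425 and 706 TPM in the cjESC libraries, 2149 and 2042 at 48 h and 589 and 712 at 96 h, with HAND1 its most abundant gene. The part of such cells in the libraries of all cells was not tested.

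**Figure D2:**
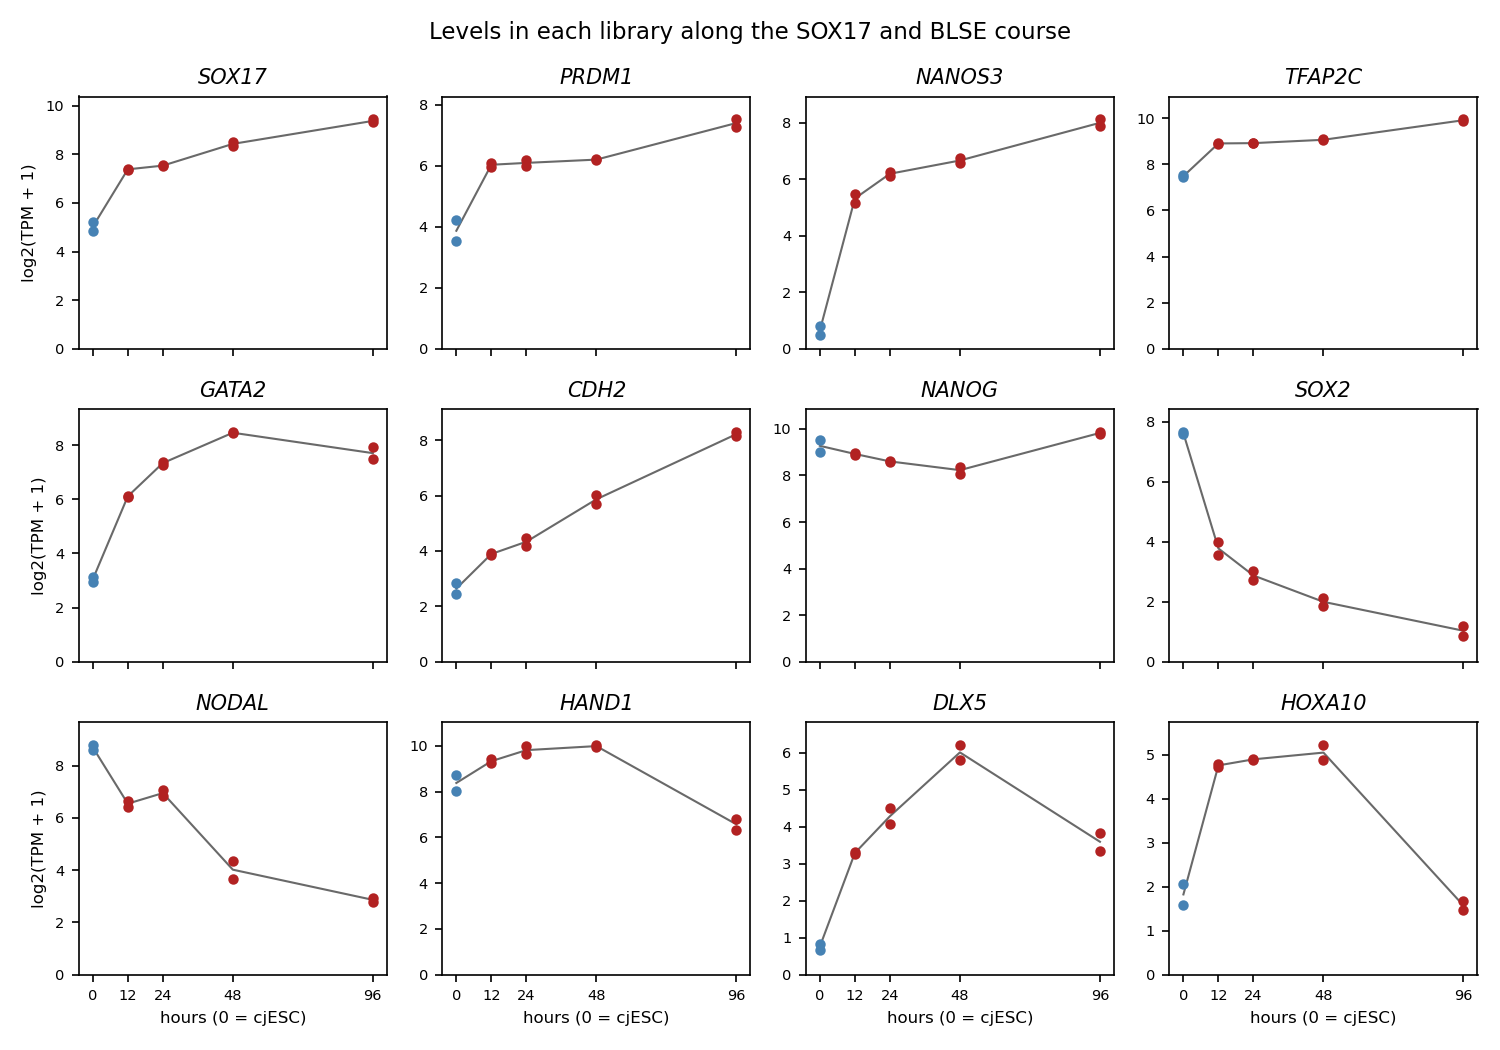
Levels of 12 genes in each of the 10 libraries, as log2(TPM + 1) against hours in SOX17 and BLSE, with cjESCs at 0 h; points are libraries, lines join the means of each pair, and each panel has its own scale. NANOS3 goes from 0.42 and 0.74 TPM in cjESCs to 276 and 234 at 96 h and SOX2 from 191 and 200.4 to 0.82 and 1.3, while DLX5 peaks at 48 h.

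NODAL and several genes of its pathway fell from the start. Activin A is listed for the cjESC medium and not for that of the treated cells, and the part of this change was not tested. NODAL (100406643), the ligand that holds primed cells pluripotent and drives streak fates, was at 390.4 and 438 TPM in the cjESC libraries, 100.1 and 84.8 at 12 h, 132 and 113 at 24 h, 11.7 and 19.6 at 48 h and 5.84 and 6.7 at 96 h. Its level fell in the first 12 h and again between 24 and 48 h (−2.93). Its antagonist CER1 (100410143) was at 297 and 515 TPM in the cjESC libraries, 25.4 and 24.3 at 12 h, 1.3 and 1.04 at 24 h, 0.35 and 0 at 48 h and 0 and 0 at 96 h, and was among the genes with the largest decrease at every time. The co-receptor TDGF1 was at 942 and 785 TPM in cjESCs, 522 and 488 at 12 h and 138 and 134 at 96 h. GDF3, a related ligand, was at 1259.5 and 1161 TPM in cjESCs, 499 and 502 at 48 h and 621 and 591 at 96 h. The treated pairs of all 4 genes lie below cjESCs. The receptor ACVR1B rose instead, by 1.54 at 96 h. Of 9 genes of the axis tested 5 fell at 48 h and 6 at 96 h, with medians of −1.27 and −0.80. The LEFTY genes were not analysed here, and SMAD2 was at or under 0.37 TPM in all libraries of the study.

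Primitive streak genes were on in the cjESCs and took different courses. TBXT (100384957), the streak and early germ cell factor brachyury, was at 435 and 404 TPM in the cjESC libraries, 361 and 316 at 12 h, 491 and 431 at 24 h, 179 and 213 at 48 h and 477 and 411 at 96 h, with the 48 h pair lowest, and passed at no time against cjESCs. MIXL1 (100405816) was at 353 and 326 TPM in the cjESC libraries, 45.7 and 28.7 at 12 h, 93.6 and 42.9 at 24 h, 4.36 and 10 at 48 h and 2.85 and 0.94 at 96 h. EOMES, a T-box factor of streak and endoderm, was at 30.6 and 30 TPM in cjESCs, 8.96 and 4.55 at 12 h, 31 and 14.1 at 24 h, 3.22 and 5.41 at 48 h and 0 and 0.27 at 96 h. The 24 h replicates of both genes differ about as much as 12 h differs from 24 h. MIXL1 fell by 6.96 at 96 h, and EOMES fell by 4.80. EVX1, a late streak factor, rose to 102 and 87.6 TPM at 24 h from 24.7 and 25.4 in cjESCs and was back at 27.3 and 23.2 at 96 h. FOXF1, of lateral mesoderm, was at 6.82 and 9.88 TPM in cjESCs, 20.3 and 13 at 48 h and 0.16 and 0 at 96 h. GATA6, of mesoderm and endoderm, was at 122 and 154 TPM in cjESCs, 92.1 and 84.3 at 48 h and 8.54 and 14 at 96 h. Neither passed against cjESCs up to 48 h, and both were low at 96 h. Of 15 streak and mesoderm genes tested 3 rose and 6 fell at 48 h (2 fell without cjESC replicate 2, 3 without 48 h replicate 2), and 1 rose (0 without cjESC replicate 1 or without 96 h replicate 1) and 8 fell at 96 h, when the median was −2.10.

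SOX17 is also a factor of endoderm, whose genes were mixed. FOXA2 (118142764) was at 1.23 and 0 TPM in the cjESC libraries, 2.41 and 2.04 at 12 h, 4 and 1.3 at 24 h, 27.4 and 22.6 at 48 h and 6.36 and 7.51 at 96 h, highest at 48 h. HNF4A, a factor of liver and yolk sac, was at 3.94 and 6.56 TPM in cjESCs, 26.1 and 27.9 at 48 h and 3.93 and 7.68 at 96 h. APOA1, an apolipoprotein of the same tissues, was at 19 and 24 TPM in cjESCs, 305 and 392 at 48 h and 122 and 186 at 96 h. HHEX, of anterior endoderm, passed at 96 h alone, at 39.4 and 41.3 TPM against 11.3 and 13.3 in cjESCs. FOXA1 stayed under 1 TPM, TTR and AFP are listed at 0 in all libraries of the course but 1 at 96 h, and GATA4 and CXCR4 were not analysed here. Of 12 endoderm genes tested 5 rose and 1 fell at 48 h, and 5 rose and 3 fell at 96 h, with medians of 0.42 and 0.61. PRDM1, the gate of the 96 h sort, and RSPO3 are in this list and among the genes that rose at both times. Of 7 definitive endoderm markers, SOX17 among them, 3 rose and 1 fell at 48 h; they summed to 463 and 725 TPM in cjESCs, 527 and 476 at 48 h and 750.5 and 707 at 96 h, where SOX17 alone gave 692 and 636. Their part in the result was not tested.

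Most WNT ligands and receptors were down at 96 h. WNT3 (100398579), the ligand of streak formation, was at 49.9 and 52.6 TPM in the cjESC libraries, 58.5 and 46.5 at 12 h, 53.1 and 37.5 at 24 h, 23.5 and 23.3 at 48 h and 1.27 and 2.3 at 96 h. WNT3A was at 28.7 and 33.5 TPM in cjESCs, 93.9 and 78.8 at 24 h, 70.2 and 76.9 at 48 h and 8.54 and 9.14 at 96 h. WNT8A was at 36.2 and 38.5 TPM in cjESCs, 17.1 and 31.2 at 48 h and 0 and 0.85 at 96 h. WNT3A was highest at 24 h, and all 3 ligands were lowest at 96 h. FZD7, a receptor of stem cells, was at 68.6 and 62.2 TPM in cjESCs, 24.7 and 21.2 at 12 h and 4.58 and 4.97 at 96 h. Of 10 tested, 4 fell at 12 h (2 without any 1 of the 4 libraries compared), 3 at 24 h, 5 at 48 h (3 without cjESC replicate 2 or without 48 h replicate 1) and 7 at 96 h, while 1 rose at 24 and at 48 h (0 without cjESC replicate 1), and the median at 96 h was −1.91. Of 14 targets and inhibitors 6 were up (2 without cjESC replicate 1, 3 without 24 h replicate 1 or with a pseudocount of 0.1) and 2 down at 24 h, 5 up and 5 down at 48 h, where the median turns from 0.077 to below 0 under both scalings, and 3 up and 7 down at 96 h. NOTUM, an enzyme that inactivates WNT ligands, was at 12.1 and 15.4 TPM in cjESCs, 28.6 and 34 at 12 h, 56.4 and 53.7 at 48 h and 86.2 and 75 at 96 h, each time above the one before. DKK1, a secreted inhibitor, peaked at 48 h at 32.2 and 31 TPM and was at 0 and 3.26 at 96 h, and DKK4, another, fell at 48 and 96 h, to 0 and 0.94 TPM at 96 h from 44.9 and 62.9 in cjESCs. RSPO3 (100399183), which strengthens WNT signals at the receptor, was at 5.28 and 2.33 TPM in the cjESC libraries, 102 and 98.1 at 12 h, 127 and 169 at 24 h, 249.8 and 268 at 48 h and 24.3 and 52.7 at 96 h; it was among the 5 largest increases at 12, 24 and 48 h and dropped at 96 h. MYC, a driver of growth, was at 256 and 274 TPM in cjESCs, 139 and 139 at 12 h, 142 and 134 at 48 h and 20.1 and 19.4 at 96 h, with its larger fall in the last step (−2.74).

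Downstream of LIF, EGF and FGF some feedback genes fell. The cjESC medium held bFGF, which is not listed for that of the treated cells, and the part of this change was not tested. The median of the list was 0.10 at 12 h and 0.27 at 48 h. At 24 h it was 0.0074 and turns negative under both scalings. Of 14 tested 3 fell at 12 h (0 without 12 h replicate 2), 4 at 24 h (1 without cjESC replicate 1, 2 without either one of the 24 h libraries), 6 at 48 h and 7 at 96 h, while 2 rose at 48 h and 3 at 96 h, with a last median of −0.63. SPRY2, which dampens receptor kinase signals, was at 32 and 21.9 TPM in cjESCs, 12.4 and 9.09 at 12 h and 1.18 and 1.07 at 96 h. DUSP6, a phosphatase of ERK, was at 40.2 and 22.6 TPM in cjESCs, 60.2 and 56.1 at 48 h and 4.23 and 7.46 at 96 h, low at 96 h alone. FGF8, a ligand of streak cells, was at 72.1 and 54.2 TPM in cjESCs, 11.9 and 8.48 at 12 h, 1.25 and 2.92 at 48 h and 0.33 and 0.89 at 96 h. PIM2 (100404269), a survival kinase, was at 62.6 and 45.2 TPM in the cjESC libraries, 61.5 and 79.3 at 12 h, 74.1 and 81.3 at 24 h, 153 and 143 at 48 h and 477 and 427 at 96 h, with 48 and 96 h above all others. ETV5, an ETS factor that keeps male germline stem cells, was at 14 and 9.31 TPM in cjESCs, 13.8 and 12.3 at 48 h and 85.4 and 57.3 at 96 h, and among the steps passed in the last alone (2.34, adjusted p 1.65e-08).

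Dexamethasone also binds the cell's own glucocorticoid receptor. Of 11 known targets tested, 4 rose and 3 fell at 96 h, when the median of 0.045 turns negative under both scalings. Over all genes tested 25.6% rose and 17.6% fell at 96 h. FKBP5 (100413287), the target most used as a readout of the receptor, was at 112 and 126 TPM in the cjESC libraries, 78.4 and 64.5 at 12 h, 62.9 and 55.2 at 24 h, 64.4 and 65.1 at 48 h and 28.4 and 22.7 at 96 h, below cjESCs at each time. TSC22D3, another common target, was at 4.74 and 6.17 TPM in cjESCs, 4.62 and 6.74 at 12 h, 4.72 and 4.78 at 48 h and 13.9 and 16.8 at 96 h, up at 96 h alone. TAT (100410667), a liver enzyme and classical target, was at 1.92 and 1.51 TPM in the cjESC libraries, 2.42 and 5.19 at 12 h, 3.97 and 4.24 at 24 h, 32.4 and 37 at 48 h and 104 and 178 at 96 h, high at 48 and 96 h. TAT rose by 3.72 at 48 h and 5.66 at 96 h. The part of this receptor in these values was not tested.

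HOXA10 and HOXA9, of the posterior HOX genes, were up between 12 and 48 h and low in the sorted cells of 96 h. HOXA10 (100396925) was at 1.99 and 3.2 TPM in the cjESC libraries, 25.6 and 26.8 at 12 h, 28.7 and 29.1 at 24 h, 36.4 and 28.6 at 48 h and 2.21 and 1.75 at 96 h. HOXA9, its neighbour, was at 2.63 and 6.46 TPM in cjESCs, 21.1 and 29.2 at 12 h, 20.5 and 17.3 at 48 h and 1.7 and 2.83 at 96 h. In both the 96 h pair overlaps that of cjESCs. Of 18 HOX genes tested, 8 rose at 12 h (5 without cjESC replicate 1 or without 12 h replicate 2), 5 at 24 h and 8 at 48 h (4 without 48 h replicate 1), with medians of 0.61, 0.68 and 1.08, while at 96 h 2 were below cjESCs and the others did not pass.

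Markers of other cells moved with these times. Of 9 stromal markers tested 6 rose at 12 h, 6 at 24 h and 6 at 48 h, while 0 rose and 4 fell at 96 h. The list summed to 57.3 and 92.3 TPM in the cjESC libraries, 216 and 245 at 12 h, 208 and 237 at 24 h, 323 and 305 at 48 h and 49.8 and 62.9 at 96 h. DCN, a matrix proteoglycan and its most abundant gene, was at 16.4 and 35.3 TPM in cjESCs, 143 and 119 at 48 h and 6.01 and 9.37 at 96 h, and ASPN is listed at 0 in all 10 libraries. Of 10 feeder or fibroblast markers 8 fell at 96 h, with sums of 1279 and 1875 TPM in cjESCs, 1383 and 1497 at 12 h, 1479.6 and 1431 at 24 h, 1835 and 1709.7 at 48 h and 747 and 728 at 96 h. FBLN1 makes up most of each sum, and POSTN stayed under 1 TPM. COL1A2, a collagen, was at 141 and 108 TPM in cjESCs, 82.9 and 164 at 12 h, 31.5 and 80.8 at 24 h and 14.7 and 10 at 96 h, with replicates far apart at 12 and 24 h. Of 7 endothelium and blood markers tested 3 rose at 48 h. At 96 h, when 25.6% of all genes rose and 17.6% fell, 3 of these markers rose and 3 fell. The median of these markers at 96 h turns from 0.01 to negative under both scalings. Their sum went from 190.3 and 193 TPM in cjESCs to 343 and 239 at 12 h, 348 and 229 at 24 h, 158 and 162 at 48 h and 62.6 and 50.4 at 96 h, led by FLT1, and GATA1 and TAL1 were under 1 TPM. Their part in the results was not tested.

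Genes of the mesenchymal state differed in their courses. VIM (100408168), an intermediate filament of mesenchyme, was at 375 and 729 TPM in the cjESC libraries, 1109 and 1087 at 12 h, 609 and 686 at 24 h, 363 and 290.0 at 48 h and 68.4 and 59.7 at 96 h, highest at 12 h and lowest at 96 h. SNAI2, a repressor of E-cadherin, was at 23.1 and 28.3 TPM in cjESCs, 15 and 9.02 at 48 h and 0.77 and 0.7 at 96 h. MMP2, a matrix protease, was at 258 and 266 TPM in cjESCs, 627 and 718 at 12 h, 632 and 533 at 48 h and 1371 and 1052 at 96 h, highest at 96 h. Of 11 genes of the epithelial to mesenchymal transition, a list that also holds epithelial genes such as CDH1, 5 rose at 12 h (3 without cjESC replicate 1) and 5 at 24 h (3 without 24 h replicate 1). At both times 1 fell (0 without any 1 of the libraries compared). At 48 h 4 rose and 3 fell (0 fell without cjESC replicate 2, 1 without 48 h replicate 2). At 96 h 3 rose and 4 fell, when 25.6% of all genes rose and 17.6% fell. Of 6 neural genes tested 4 fell at 96 h and EN2 rose. NES, a filament of neural progenitors, was at 301 and 282 TPM in cjESCs, 154 and 140.1 at 48 h and 53.3 and 51.4 at 96 h.

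Retinoic acid genes took different courses. CYP26A1 (100388379), which breaks retinoic acid down, was at 199.7 and 302 TPM in the cjESC libraries, 173 and 274 at 12 h, 126 and 171 at 24 h, 168 and 152 at 48 h and 5.73 and 14.5 at 96 h. CRABP2, which carries it, was at 290.2 and 769 TPM in cjESCs, 579 and 543 at 48 h and 29.6 and 50.9 at 96 h. Both passed at no time to 48 h and lost over 10-fold by 96 h (−3.98 and −3.82 from 48 h). ALDH1A3, which makes it, was at 15.3 and 22 TPM in cjESCs, 28.2 and 34.9 at 48 h and 45.9 and 51.8 at 96 h, highest at 96 h. Of 12 tested 2 rose (1 without cjESC replicate 1 or without 96 h replicate 1) and 4 fell at 96 h (median −0.078), when 25.6% of all genes rose and 17.6% fell.

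Of 16 DNA methylation and chromatin genes tested, 6 fell at 96 h (median −0.32), and 3 without cjESC replicate 1. UHRF1 (100406074), which brings DNMT1 to newly copied DNA, was at 118 and 127 TPM in the cjESC libraries, 79.5 and 91.2 at 12 h, 55.1 and 63.5 at 24 h, 52.5 and 55.1 at 48 h and 16.2 and 16.1 at 96 h, and fell from 24 h on. DNMT1, which copies methylation, was at 30.1 and 36.8 TPM in cjESCs, 85.8 and 87.6 at 48 h and 50.9 and 41.6 at 96 h, highest at 48 h. EHMT2, a histone H3 lysine methyltransferase, was at 14 and 14.4 TPM in cjESCs, 5.4 and 4.63 at 12 h and 3.2 and 2.99 at 96 h.

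The median of the cell cycle genes, 0.05 at 48 h, turns negative under both scalings, and at 96 h 8 of 16 fell (median −0.60), and 4 without cjESC replicate 1. CCNE1, a cyclin of the entry into S phase, was at 188 and 173 TPM in cjESCs, 305 and 292 at 12 h, 125 and 133 at 48 h and 37.5 and 53.9 at 96 h. MCM5, of the replication helicase, was at 227 and 186 TPM in cjESCs, 288 and 257 at 48 h and 103 and 98.6 at 96 h. CDKN1C (100385855), an inhibitor of cyclin-dependent kinases, was at 25.6 and 30.5 TPM in the cjESC libraries, 65 and 77.7 at 12 h, 27.9 and 39.5 at 24 h, 64.3 and 50.8 at 48 h and 169.9 and 177 at 96 h. CDKN1C was the member that rose at 96 h, while CCNE1 was highest at 12 h.

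Most glycolysis genes were down at 96 h. Of 15 tested, 3 fell at 12 h (1 without cjESC replicate 2), 7 at 24 h (4 without cjESC replicate 2 or without 24 h replicate 1), 7 at 48 h and 11 at 96 h, and the median was −0.40, −0.41, −0.69 and −1.08 at the 4 times. PGAM1 (100400929), phosphoglycerate mutase, was at 1670.5 and 1714 TPM in the cjESC libraries, 1095 and 1023 at 12 h, 974 and 889 at 24 h, 730.4 and 691 at 48 h and 424 and 365 at 96 h, each time below the one before. PGK1, phosphoglycerate kinase, was at 594 and 832 TPM in cjESCs, 434 and 493 at 12 h, 339 and 321 at 48 h and 182 and 173 at 96 h. The glucose transporter SLC2A1 passed at no time to 48 h and was at 149.7 and 216 TPM at 96 h against 984 and 1030.2 at 48 h. PFKL, a phosphofructokinase, was the member that rose at 96 h. GAPDH fell at 48 and 96 h.

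Among 10 genes often used as references 2 rose and 5 fell at 96 h, the latter 3 without cjESC replicate 2. ACTB was at 4346 and 4327 TPM at 48 h and 2318 and 2546 at 96 h, and RPLP0 between 3176 and 3533 in the 10 libraries. Of 10 apoptosis and p53 genes 1 rose and 5 fell at 48 h (3 without cjESC replicate 2 or without 48 h replicate 1), BAX up by 0.77 and PMAIP1 at 159 and 167 TPM against 332 and 414 in cjESCs. Both induce cell death. EGR1, an early response gene of dissociation and stress, was at 35.7 and 19.8 TPM in cjESCs, 143 and 157 at 12 h, 198 and 213 at 48 h and 182 and 141 at 96 h, up at all times. Of 8 dissociation and stress genes tested, EGR1 among them, 2 rose at 12 h and 5 at 48 h (3 without either one of the cjESC libraries, 2 without 48 h replicate 2), and 2 rose and 2 fell at 96 h (1 fell without either one of the cjESC libraries or without 96 h replicate 1). Over all genes tested 25.6% rose and 17.6% fell at 96 h.

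**Figure D3:**
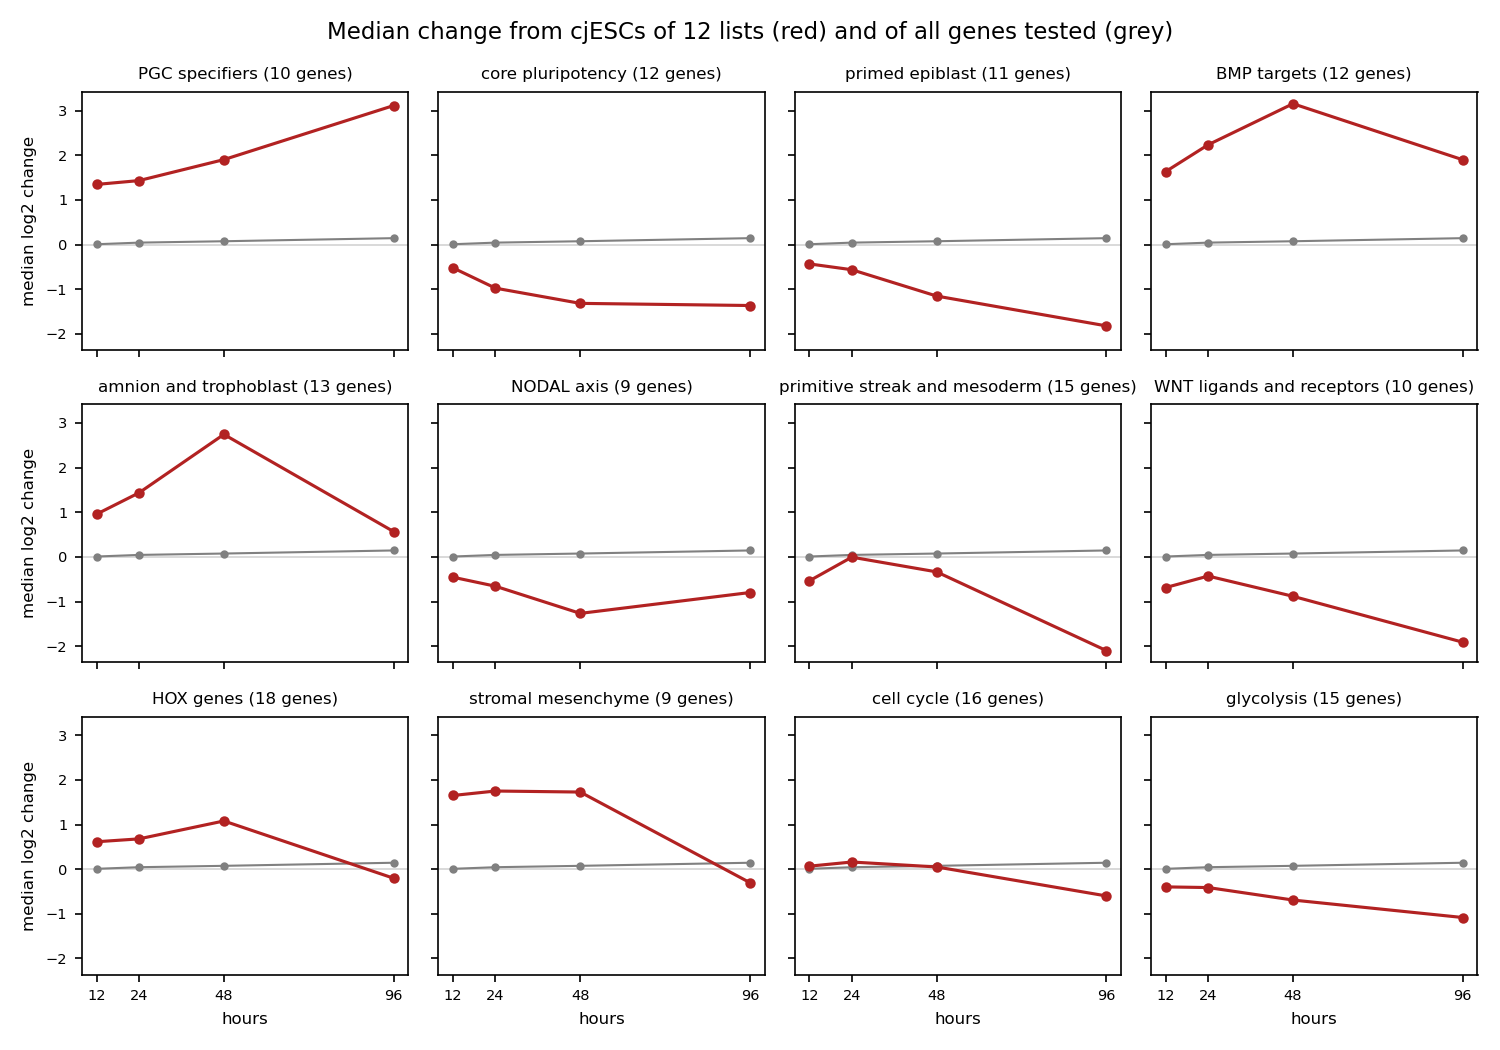
Median log2 change from cjESCs of the tested genes of 12 lists at 12, 24, 48 and 96 h, with the median of all 11197 genes in grey. Germ cell specifiers, with the enforced SOX17 and the sort gate PRDM1 among them, reach 3.11 at 96 h. BMP targets are up from 12 h at 1.64, and glycolysis falls to −1.08. The lists plotted keep their sign under both scalings at all times shown, apart from cell cycle at 48 h.

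Some genes of motile cilia were expressed in the cjESCs and lower at 12 h. FOXJ1 (100405481), the master factor of motile cilia, was chosen after its values were seen: 289 and 219 TPM in the cjESC libraries, 20.5 and 20.2 at 12 h, 9.82 and 16.3 at 24 h, 9.12 and 5.18 at 48 h and 1.39 and 2.89 at 96 h. All treated libraries lie below cjESCs by over 10-fold, and it fell by 3.57 at 12 h and fell by 6.37 at 96 h (SE 0.45, adjusted p 2.11e-14). CFAP126, a cilia protein among the 5 largest decreases at 24 and 48 h, was at 37.7 and 54.5 TPM in cjESCs, 3.22 and 8.18 at 12 h and 0 and 0.45 at 24 h and is listed at 0 in the libraries of 48 and 96 h. A family of symbols of axoneme proteins (CFAP, DNAH, DNAI, DNAL, TEKT and RSPH), also chosen after values were seen, had 35 of 56 members tested; 12 fell at 12 h (7 without cjESC replicate 2 or without 12 h replicate 2), 11 at 24 h, 13 at 48 h and 11 at 96 h, while 1 rose at 12 h, 1 at 48 h and 2 at 96 h (0 at each of these times without cjESC replicate 1), with medians of −0.60, −0.47, −0.63 and −0.12. TUBB4A, a tubulin among the 5 largest decreases at 96 h, was at 375 and 424 TPM in cjESCs, 59.7 and 67.3 at 12 h, 11.8 and 17.2 at 48 h and 3.98 and 1.63 at 96 h.

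By the time of the first call, 74 genes were first called higher at 12 h, 66 at 24 h, 123 at 48 h and 244 at 96 h. Of those first called at 12 h 33 were still called at 96 h, of those at 24 h 34, and of those at 48 h 63. Lower calls began with 40, 39, 96 and 250 genes, and 34, 30 and 66 of the first 3 groups were still lower at 96 h. In all 507 genes were called higher and 425 lower at some time, 32 higher and 28 lower at all 4 times, and 3 both ways, among them HAS2, higher early and lower at 96 h and picked here after its values were seen. The genes higher at all times include SOX17, PRDM1, NANOS3 and GATA2, the BMP targets MSX2, DLX5, ID4 and BAMBI, and TCEAL5, which was at 0.94 and 0 TPM in cjESCs, 11.7 and 14.7 at 12 h, 59.5 and 71.4 at 48 h and 146 and 126 at 96 h. GATA2 and these BMP targets also lay above both cjESC libraries in BLSE without SOX17 at 48 h. There GATA2 was at 127 and 128 TPM, MSX2 at 173 and 140, DLX5 at 64.8 and 64.5, ID4 at 26.3 and 24 and BAMBI at 663 and 737. Those lower at all times include SOX2, CER1, MIXL1, FGF8 and DNMT3B. In BLSE without SOX17, with all cells taken, these genes were low at 96 h too. There SOX2 was at 2.08 and 1.01 TPM, CER1 at 0 and 0, MIXL1 at 0.4 and 0, FGF8 at 0.26 and 0.69 and DNMT3B at 4.51 and 4.76. FOXJ1, also lower at all times, was at 0.16 and 0.98 there.

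A transient rise, called higher at 12, 24 or 48 h and then lower at 96 than at 48 h, was seen in 48 genes. The 96 h libraries are sorted and those of 48 h are not, so time and sort cannot be told apart in this pattern. The 5 most abundant over 12 to 48 h were TGFBI, SERPINE2, FST, RSPO3 and TBX3. TGFBI (100397340), a matrix protein made under TGF-beta, was at 31.1 and 25.9 TPM in the cjESC libraries, 432 and 419.6 at 12 h, 359.8 and 384 at 24 h, 213 and 170.3 at 48 h and 56.1 and 37.7 at 96 h, highest at 12 and 24 h. FST (100412680), which traps activins and BMPs, was at 49.9 and 26.3 TPM in the cjESC libraries, 129 and 122 at 12 h, 173 and 197 at 24 h, 196 and 230.5 at 48 h and 17.8 and 34 at 96 h. TBX3, a T-box repressor, was at 3.78 and 6.01 TPM in cjESCs, 82.3 and 71.1 at 12 h, 289.9 and 274 at 48 h and 42.5 and 59.4 at 96 h. SERPINE2, a protease inhibitor, was at 90.5 and 82.6 TPM in cjESCs, 343 and 382 at 48 h and 62.4 and 84.8 at 96 h. TBX3 and SERPINE2 had their highest pairs at 48 h. FST was high at 24 and 48 h with overlap. At 96 h FST and SERPINE2 overlap cjESCs. CCL2, a chemokine among the 5 largest increases at 12 h, peaked there: 1.26 and 1.11 TPM in cjESCs, 27.2 and 28.9 at 12 h, 7.45 and 13.7 at 24 h and 0 and 0 at 96 h. Only 2 genes had the mirror pattern, PRDM14 and TPPP3, the latter named after its values were seen.

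The step from 12 to 24 h was small: 2 genes were called higher (0.0179% of those tested) and 1 lower (0.00893%). CITED1, a co-activator, was at 0.65 and 0 TPM at 12 h and 6.94 and 5.43 at 24 h, CLDN1, of tight junctions, at 3.25 and 1.72 and then 16.4 and 11, and PRSS2, a trypsinogen, at 8.79 and 5.48 and then 1.4 and 0. The limma count of 3 falls to 0 without replicate 2 of 12 h, where 10 genes still pass an unadjusted p of 0.05 and 4-fold, and to 0 without replicate 1 of 24 h, where 14 do. Without replicate 1 of 12 h 4 genes are called but 0 of these 3, and without replicate 2 of 24 h 1 of them. From 24 to 48 h 26 were called higher (0.232%) and 20 lower (0.179%), against 15 and 24 with a pseudocount of 0.1. KRT72 (100395494), a keratin, was at 0.44 and 1.7 TPM in the cjESC libraries, 2.02 and 1.4 at 12 h, 9.78 and 5.42 at 24 h, 206 and 169.6 at 48 h and 94.3 and 109 at 96 h, high at 48 and 96 h alone. VGLL1, a trophoblast co-factor of TEAD proteins, was at 7.52 and 4.2 TPM in cjESCs, 2.01 and 1.79 at 24 h, 26.5 and 31.4 at 48 h and 8.89 and 24.2 at 96 h. GCM1, the factor of syncytiotrophoblast, rose from 0 and 0.18 to 8.24 and 8.54 TPM. ESM1, an endothelial proteoglycan, dropped from 15.6 and 17.5 to 0.42 and 0.65 TPM and MMP9, a matrix protease, from 237 and 453 to 48.1 and 38.9.

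From 48 to 96 h time and the sort changed together and cannot be told apart. At this step 1327 genes rose (11.9% of those tested) and 1320 fell (11.8%), and 88 were called higher (0.786%) and 160 lower (1.43%). CD52, a small surface glycoprotein of leukocytes and the male reproductive tract, is listed at 0 in the 8 libraries before and was at 15 and 26.2 TPM at 96 h; in BLSE alone at 96 h it was at 22.5 and 31. HHIP (100404963), a decoy receptor of hedgehog ligands, was at 0.14 and 0 TPM in the cjESC libraries, 1.08 and 1.56 at 12 h, 1.37 and 1.56 at 24 h, 10.7 and 11.3 at 48 h and 77.1 and 83.1 at 96 h, rising at 48 h and again at 96 h. TCL1B, a relative of TCL1A, was at 0.83 and 0.74 TPM in cjESCs, 2.12 and 3.02 at 24 h, 18.9 and 21.3 at 48 h and 141 and 114 at 96 h. RARRES2, the chemokine chemerin, was at 7.08 and 3.38 TPM at 48 h and 74.8 and 80.6 at 96 h, and PRR9, a keratinocyte protein, at 120.3 and 164 at 48 h and 301 and 531 at 96 h. Lower at 96 h were TBX20, a heart and mesoderm factor, from 33.5 and 21.4 to 0.38 and 0 TPM, NEFM, a neurofilament, from 29.5 and 35.1 to 0 and 1.95, and HAPLN1, which links matrix proteoglycans, from 58.1 and 69 to 1.29 and 5.37. By list, 6 of 10 germ cell specifiers rose, while 6 of 12 BMP targets, 6 of 13 amnion and trophoblast genes, 10 of 18 HOX genes and 7 of 9 stromal markers fell. Their medians were 0.90, −0.89, −1.22, −1.47 and −2.39, beside 0.061 over all genes.

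The same line in BLSE without SOX17 or dexamethasone, with all cells taken at each time, shows where the course differs. At 12 h 13 genes were called higher (0.116%) and 5 lower (0.0447%), a split of 11 and 7 under median-ratio scaling. At 24 h 45 were higher (0.402%) and 13 lower (0.116%; 8 without 24 h replicate 2), against 35 and 18 with median-ratio scaling and 33 and 18 with quantile normalization, which moved the median of all genes by −0.11 and −0.10. At 48 h the counts were 133 (1.19%) and 93 (0.831%), and median-ratio scaling turned the lead to 108 and 115. At 96 h, where reporter-positive cells stand against all cells, they were 531 (4.74%) and 441 (3.94%), and 419 and 553 with median-ratio scaling, with shifts of −0.24 and −0.20.

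At 24 h, 7 of 10 germ cell specifiers were higher with SOX17 than in BLSE alone, with 5.55% of all genes higher. SOX17 itself, enforced by the treatment, is in this list and among those counted at 24 and 48 h. NANOS3 was at 7.78 and 8.39 TPM in BLSE alone and 75.6 and 68.7 with SOX17, and DND1 at 58.5 and 62.4 in BLSE alone and 161 and 167 with SOX17. At 48 h 9 of 10 were higher, with 10.3% of all genes, and 10 of 18 HOX genes (6 with a pseudocount of 0.1) and 6 of 15 glycolysis genes were lower, with 6.37% of all genes. Of 12 BMP targets 0 were higher and 1 lower with SOX17 at 24 h, and 3 were higher and 2 lower at 48 h. HOXA10 was at 85 and 102 TPM in BLSE alone at 48 h and 36.4 and 28.6 with SOX17. CDH2 was at 3.78 and 4.29 TPM in BLSE alone and 51.5 and 64 with SOX17, in the same order PIM2 was at 5.66 and 4.08 and at 153 and 143, and TAT at 0.18 and 0.65 and at 32.4 and 37. The pairs of each gene named here do not overlap between the treatments.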

How the data were processed

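The deposited table holds TPM values (transcripts, per length, as a share of all) that the authors made with STAR and RSEM for 14812 genes in 54 libraries; read counts and depths are not given, so no counting error can be stated. Groups follow the labels. limma 3.58.1 in R 4.3.3 was fitted to log2(TPM + 1) of the 11197 genes at a log2 value of 1.5 or more in at least 1 library, with a mean for each of 27 conditions, 27 residual degrees of freedom, an intensity trend and two-sided Benjamini-Hochberg adjusted p-values. An exact permutation test of 2 against 2 libraries cannot go below 0.33. Lists were described by counts and medians and not tested. Named genes are the 4 markers SOX17, PRDM1, NANOS3 and GATA2, members of the lists reported, the 5 largest increases and decreases among called genes of each time and step, and the 5 most abundant transient genes. A few genes withheld for evaluation are counted but not reported here. Members and lists were chosen with earlier results of these data known. The fit was repeated with a pseudocount of 0.1, with all genes kept, on the courses alone, with a replicate block, without the trend, after median-ratio scaling or quantile normalization, and without each library in turn. No genome or promoter table was given, so promoters were not searched.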

Additional observations from a re-analysis of the deposited data

Results flagged for a closer look

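Over the 11197 genes tested, 54 rose against cjESCs at 48 h in one treatment and fell in the other. The treatments are SOX17 with BLSE and BLSE alone. Of these genes 8 are in the lists. Since the genes were picked for opposite changes from the same cjESCs, the differences between the treatments follow from the choice and are given as a description. Higher with SOX17, on the log2 scale, were PIM2 by 4.68, HNF4A by 3.47, KLF5 by 2.11 and POU5F1 by 1.59. Lower with SOX17 were NES with a difference of −1.74, VIM with −2.26 and BMP4 with −2.59. The falls of VIM and BMP4 from cjESCs with SOX17 no longer passed without cjESC replicate 2, so their opposite changes rest on that library. PIM2 changed by 1.46 from cjESCs with SOX17 and by −3.22 without it, and BMP4 by −0.88 and 1.71. BMP4 was at 85.2 and 83 TPM with SOX17 and 478 and 548 without it, against 119 and 205 in cjESCs, and KLF5 at 121 and 119.7 and 26.7 and 27.4 against 72.7 and 69.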

How the results depend on the processing

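Each total of called genes, higher and lower together, kept within 1.5 times its size under the alternatives, apart from that of 24 against 12 h, which was 3 and became 1 with a pseudocount of 0.1 and 0 to 4 when a library was left out. The parts moved more: from 24 to 48 h the higher genes went from 26 to 15 and the lower from 20 to 24 with that pseudocount, which turned the lead. Against BLSE alone the lower genes went from 5 to 3 at 12 h with it and from 13 to 8 at 24 h without 24 h replicate 2. Where a library is left out, the lone sample of its group is assumed to vary like the other groups. Leaving out a library gave 113 to 128 called genes at 12 h, 188 to 208 at 24 h, 379 to 422 at 48 h and 745 to 807 at 96 h against cjESCs. With a replicate block the counts were 115, 202, 390 and 754. The labels state no link between equal replicate numbers, so they were not taken as pairs; deviations of equal numbers correlated at r −0.0506 to 0.272 across genes.

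Of the values of single genes under an alternative, 810 kept their direction and their side of the threshold and 4 no longer passed; none reversed. Of the counts within lists 1634 kept within 1.5 times and 148 did not, most of them counts of a few genes. HOX genes lower than in BLSE alone at 48 h were 6 with the smaller pseudocount, against 10. The cause of these shifts was not tested. Depth is unknown, so what it limits cannot be stated.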
